A study of Trachemys scripta with 24 samples.

Results

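The miRNAs of 3 families tied to inflammation, miR-21, miR-146 and miR-155, were followed in the plasma of 8 female pond sliders (Trachemys scripta) that underwent surgical gonadectomy. Plasma was drawn at T0 (24 h before surgery), T1 (2.5 h afterwards) and T2 (36 h afterwards), and each time point has 8 small RNA libraries. The turtles were healthy and sexually mature, their ovaries were removed with an endoscope, and the injected anesthetics were dexmedetomidine, ketamine, midazolam and alfaxalone, with atipamezole and flumazenil for reversal. No library comes from turtles without surgery, so that time, anesthesia and surgery cannot be told apart. Reads had been counted on the miRNA precursors of 4 saurian species, and the members are the entries with the prefix cpi, for the painted turtle Chrysemys picta, that belong to miR-21, miR-146 or miR-155 by name. These were 12 of the 528 cpi entries and of the 1994 entries in all, namely 2 of miR-21, 6 of miR-146 (hairpins a, b and c) and 4 of miR-155 (hairpins a and b). Each hairpin had an entry for its 5p and its 3p arm, and these names are given as deposited. The labels do not name the turtle of a library, so libraries were not paired.

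In mammals, miR-21 is found in most tissues and rises in wounded and inflamed tissue, where it represses among others the tumour suppressor PDCD4. miR-146a is switched on by the transcription factor NF-kB and represses the adaptor TRAF6 and the kinase IRAK1, which lie upstream of NF-kB, so that it acts as a brake on signals from toll-like receptors. miR-155 is made from a host transcript that activated macrophages and lymphocytes express, and it represses SOCS1 and SHIP1, both of which restrain immune signalling. Plasma miRNAs come from blood cells, vessel walls and solid tissues, and in plasma a larger number of releasing cells and a larger release per cell cannot be told apart.

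The 12 entries together held 61750 counts over the 24 libraries, of which 58.3% were on miR-21, 38.5% on miR-146 and 3.24% on miR-155. cpi-mir-21-3p and cpi-mir-146c-3p alone held 90.7% of them. As a share of all counts on cpi entries, the 12 entries took a median of 1.67% at T0 (lowest 1.27%, highest 2.65%), 1.81% at T1 (0.763% to 3.21%) and 1.46% at T2 (1.31% to 2.37%). The ranges of the 3 time points overlapped, and the widest was that of T1. Depth differed widely between libraries, with between 5837 and 515184 counts on cpi entries and a median of 112154.5. The smallest library, T2 replicate t39, had 22648 counts over all species, against 132522 in the next smallest, T1 replicate t38, so that its values rest on few reads.

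**Figure D1:**
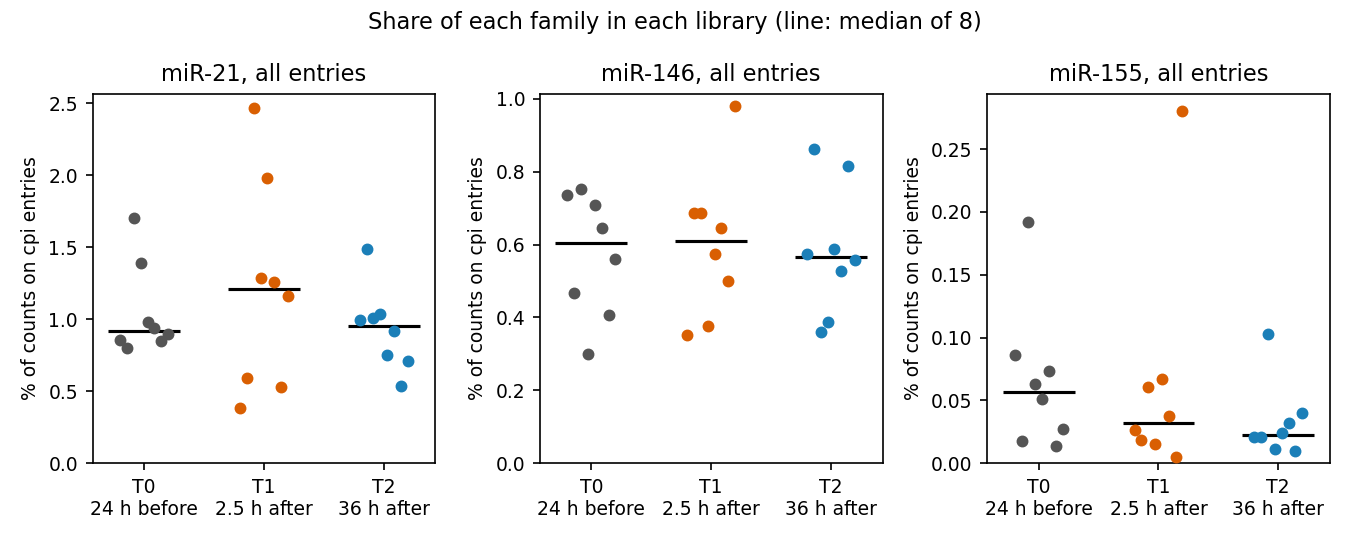
Share of the counts on cpi entries that fell on all miR-21, miR-146 and miR-155 entries (y axis, percent) in each library at T0, T1 and T2, with 8 points per time point and a line at their median. The miR-21 share spread most at T1, from 0.384% to 2.47%, and in the miR-155 panel 1 library at T0 (0.192%), 1 at T1 (0.280%) and 1 at T2 (0.103%) lay above the others of their time point.

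Levels are given as counts per 1000000 (CPM) of the counts that passed a filter on low counts, over all species and each entry taken once, scaled by edgeR's TMM factors. Since one read can be counted under several species, a CPM of a cpi entry is lower than it would be over cpi entries alone. By mean CPM over the 24 libraries, cpi-mir-21-3p stood 17th of the 528 cpi entries with 2636 CPM, and cpi-mir-146c-3p stood 34th with 1284 CPM. They were followed by cpi-mir-146b-3p with 145.7 CPM (85th), cpi-mir-155a-3p with 127 CPM (93rd) and cpi-mir-21-5p with 45.4 CPM. cpi-mir-21-3p was above cpi-mir-146c-3p in 23 of 24 libraries, and cpi-mir-146c-3p above cpi-mir-146b-3p in all 24. The next neighbours did not separate, since cpi-mir-146b-3p was the higher in 13 libraries and cpi-mir-155a-3p in 10. The remaining miR-146 entries had means of 19.8 CPM (cpi-mir-146c-5p), 19.3 CPM (cpi-mir-146b-5p), 16.0 CPM (cpi-mir-146a-3p) and 7.11 CPM (cpi-mir-146a-5p), and the first 3 of these changed places from library to library. The lowest means were 0.353 CPM (cpi-mir-155b-3p), 0.250 CPM (cpi-mir-155b-5p) and 0.109 CPM (cpi-mir-155a-5p).

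The entries named 3p held 97.8% of the counts of the 12 entries. cpi-mir-21-5p had 591 counts against 35399 on cpi-mir-21-3p, which is 1.64% of the hairpin (95% Wilson interval 1.52% to 1.78%, counting error only), and the 3p entry was the higher in all 24 libraries. The 5p share was 1.55% for miR-146c (1.39% to 1.72%), 12.8% for miR-146b (11.5% to 14.1%), 27.0% for miR-146a (22.8% to 31.8%) and 0.101% for miR-155a (0.0276% to 0.366%). These are shares of the cpi entries, and the intervals do not cover the choice of species entry. Under the alligator prefix ami, the 5p and 3p entries had 22 and 2101 counts for mir-146b, and 168 and 1988 for mir-155. For mir-21 they had 591 and 35396, close to the cpi counts. In mammals the 5p strand is the abundant one of miR-21, miR-146a and miR-155. The table has no read sequences and marks none of the 12 entries as listed in miRBase, so which strand the entries named 3p stand for was not tested. Over the 247 cpi miR hairpins with both arms and at least 1 count, the 3p entry was the higher in 135 and the 5p entry in 111.

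Whether the arms or the hairpins changed their proportions after surgery was asked with measures taken within a library, which need no scaling. The 5p share of miR-21 averaged 2.30% ± 1.82 (SD, n = 8) at T0, 2.16% ± 2.09 at T1 as well as 1.51% ± 1.19 at T2. miR-146c took most of the miR-146 counts at every time point, with a mean of 88.0% ± 3.90 at T0, 87.4% ± 4.13 at T1 as well as 84.8% ± 8.41 at T2. miR-146b took 10.3% ± 4.30 at T0, 10.6% ± 4.57 at T1 but 14.4% ± 8.53 at T2, with a wider spread. The highest miR-146b share at T2, 28.6%, was that of replicate t39, from 6 counts on cpi-mir-146b-3p. The same library had the lowest miR-146c share at T2, 71.4%, from 15 counts on cpi-mir-146c-3p. The share of miR-146a within miR-146 was 0.831% ± 0.646 at T2 and 1.68% ± 0.855 at T0, the smallest p of 27 such comparisons (two-sided exact permutation test over 12870 assignments, p = 0.0375, adjusted p = 0.901 over the 27). It was 1.94% ± 1.65 at T1, and the other 26 comparisons had the same adjusted p of 0.901. None of the 27 comparisons passed an adjusted p of 0.1.

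**Figure D2:**
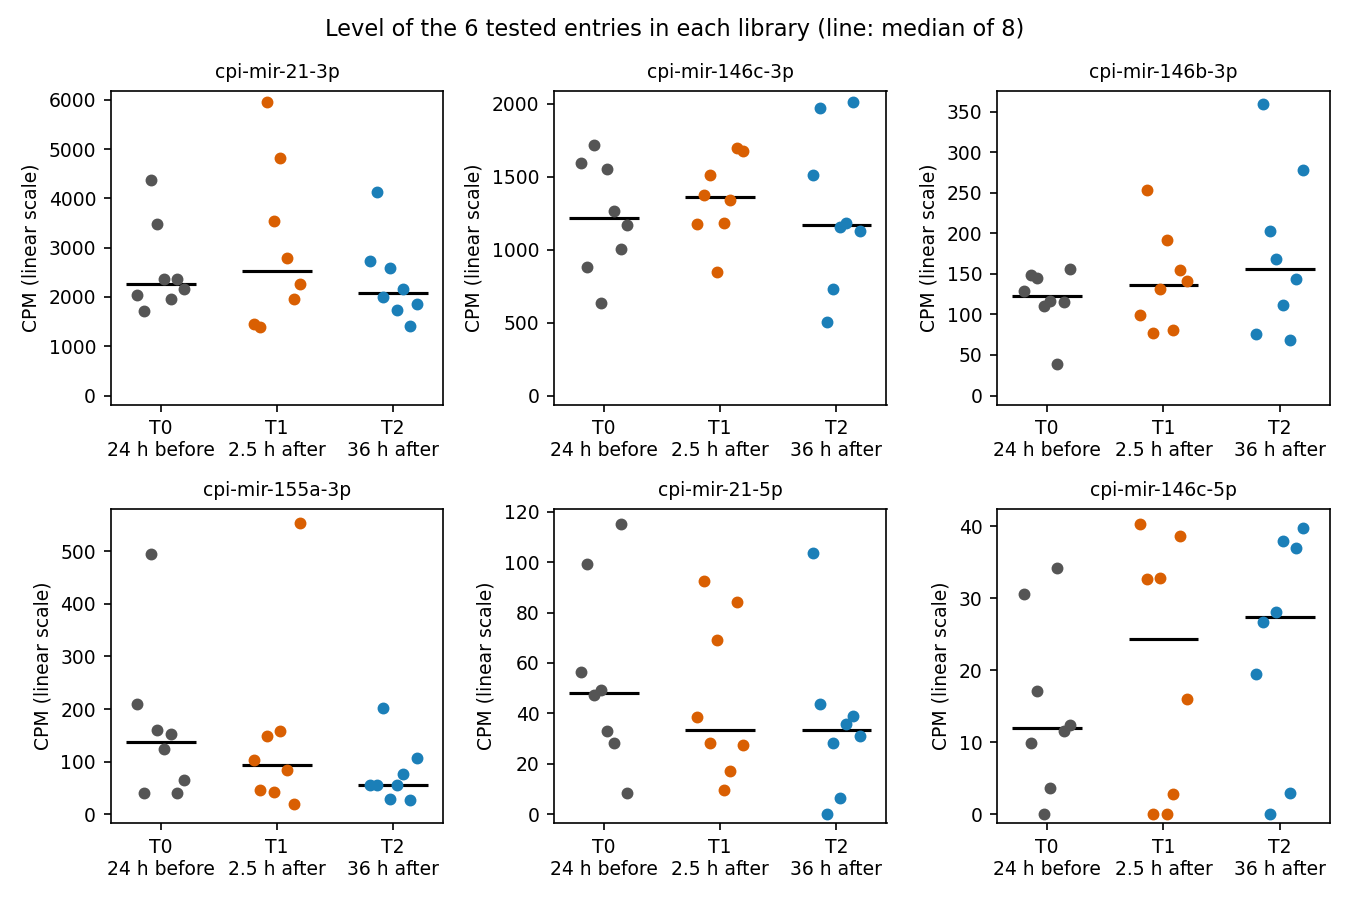
Level of the 6 entries tested, in CPM on a linear scale (y axis, a separate range in each panel), for the 8 libraries at T0, T1 and T2, with a line at the median. The time points overlap in every panel, and cpi-mir-155a-3p shows 1 library far above the others at T0 (495 CPM) and 1 at T1 (554 CPM).

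Of the 12 entries, 6 passed the filter and could be tested by edgeR's quasi-likelihood method, which was fitted jointly to the 24 libraries and the 690 entries kept. The limits for a call were those of the study, an adjusted p no larger than 0.1 together with a log2 fold change of 1 or more in either direction. None of the 6 passed in any comparison by edgeR. At T1 against T0, 0 of 6 were called, where 0.58% of all entries tested were, and 0 of 6 at an unadjusted p of at most 0.05 with the same fold change limit, where 4.2% were. At T2 against T0, 0 of 6 were called (0% of all entries) and 1 of 6 at the unadjusted limit (5.07%). At T2 against T1, 0 of 6 were called (0%) and 0 of 6 at the unadjusted limit (3.62%). DESeq2 called 0 members in each comparison. For T1 against T0 it gave an adjusted p to 680 entries, 5 of them members, and called 2.35% of these. At T2 it gave one to all 1994 entries and called 0.0502% relative to T0 and 0% relative to T1. It also gave 0 members at the unadjusted limit, where it gave 3.41% of all entries for T1 against T0, 3.46% at T2 relative to T0, and 2.31% for T2 against T1. By sign alone, 4 of the 6 members were above 0 for T1 against T0 (57.5% of all entries), 3 at T2 relative to T0 (48.6%) and 2 at T2 relative to T1 (38.1%).

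cpi-mir-21-3p had 1719 CPM in its lowest library, a median of 2266 and 4368 in its highest at T0, with 1400, 2527 and 5961 CPM at T1 and 1420, 2072 and 4139 CPM at T2. At T1 the libraries lay on both sides of those at T0, 2 above the highest and 2 below the lowest. The log2 fold change was 0.24 (standard error 0.30, adjusted p = 0.935 by edgeR) for T1 against T0, and 0.03 without T1 replicate t38, the highest library. It was -0.14 (standard error 0.30, adjusted p = 0.943) for T2 against T0, with 0.10 without T0 replicate t37, and -0.38 (standard error 0.30, adjusted p = 0.883) for T2 against T1, with -0.16 without T1 replicate t38. The 95% confidence intervals ran from -0.37 to 0.85, from -0.75 to 0.48 and from -0.99 to 0.24, all within the fold change limit. The medians of cpi-mir-21-3p, the most abundant member, thus lay closer together than the libraries of any one time point.

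cpi-mir-21-5p, the scarcer arm, had 8.21 CPM in its lowest library, a median of 48.2 and a highest value of 115 at T0. At T1 these were 9.60, 33.2 and 92.6 CPM, and at T2 they were 0, 33.2 and 104 CPM. The median of T0 was passed by 1 of the 8 libraries of T2. The library at 0 was T2 replicate t39, in which 3 counts are worth 101 CPM, so that the level of this entry could not be seen there. The log2 fold change was -0.47 (standard error 0.54, adjusted p = 0.916 by edgeR) for T2 against T0, -0.21 (standard error 0.54, adjusted p = 0.952) for T1 against T0 and -0.25 (standard error 0.54, adjusted p = 0.991) for T2 against T1. Without T2 replicate t33, the highest library at T2, the value for T2 against T0 was -0.89, and without T2 replicate t45 it was -0.21. The value for T1 against T0 was -0.02 without T0 replicate t34 and -0.51 without T1 replicate t35.

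**Figure D3:**
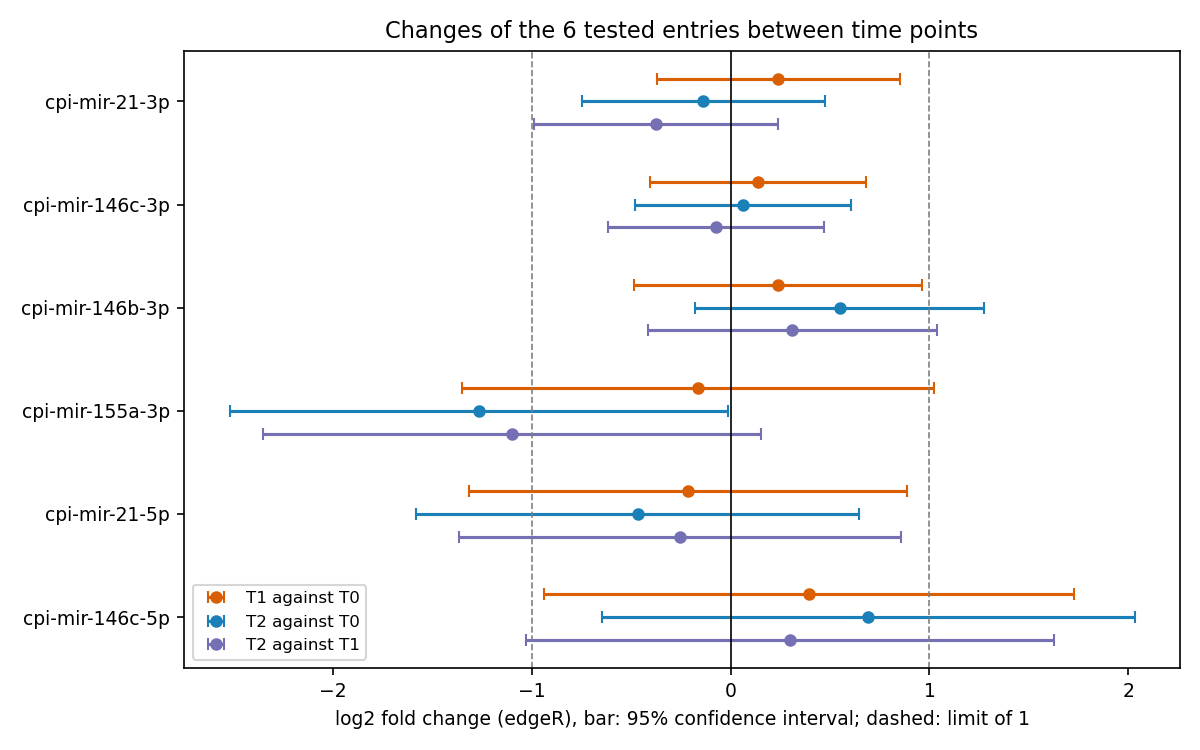
Log2 fold changes of the 6 tested entries by edgeR (x axis) with 95% confidence intervals, for T1 against T0, T2 against T0 and T2 against T1, and dashed lines at the fold change limit of 1. The intervals of cpi-mir-21-3p and cpi-mir-146c-3p lie inside the dashed lines, while each of the other 4 entries has at least 1 interval that reaches beyond them.

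Within miR-146, cpi-mir-146c-3p held the most counts. It had 634 CPM in its lowest library, a median of 1216 and 1718 in its highest at T0, with 844, 1359 and 1698 CPM at T1 and 506, 1170 and 2014 CPM at T2. The log2 fold change was 0.14 (standard error 0.26, adjusted p = 0.938 by edgeR) for T1 against T0, 0.06 (standard error 0.26, adjusted p = 0.956) at T2 relative to T0, and -0.08 (standard error 0.26, adjusted p = 0.991) for T2 against T1, with intervals from -0.41 to 0.68, from -0.48 to 0.60 and from -0.62 to 0.47. The direction of the 2 values at T2 was not stable, since without TMM the value against T0 was -0.01, and with the smallest library of each time point left out the value against T1 was 0.02. The value for T1 against T0 was 0.04 without T1 replicate t53. The level of this entry moved with the depth of the library. Spearman's rho with the total count was 0.75 over the 24 libraries, and with 8 libraries each it was 0.86 at T0 and 0.88 at T2 but 0.31 at T1, a description in which turtles repeat and the total enters the CPM.

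cpi-mir-146b-3p had 39.03 CPM in its lowest library, a median of 123 and a highest value of 156 at T0. At T1 it had 77.4, 136 and 253 CPM, and at T2 it had 68.2, 156 and 360 CPM, where 4 libraries were above every library of T0. Among these 4 was T2 replicate t39, with 202.6 CPM from 6 counts. The spread was wider at T2 than before surgery, and the groups overlapped. The log2 fold change was 0.55 (standard error 0.35, adjusted p = 0.758 by edgeR) for T2 against T0, and 0.27 without T2 replicate t36. It was 0.24 (standard error 0.35, adjusted p = 0.936) for T1 against T0, with 0.04 without T1 replicate t35, and 0.31 (standard error 0.35, adjusted p = 0.883) for T2 against T1, with 0.08 without T2 replicate t36.

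cpi-mir-146c-5p was detected in 7 of 8 libraries at T0 with a median of 11.9 CPM and a highest value of 34.2, in 6 at T1 with a median of 24.3 and a highest value of 40.3, and in 7 at T2 with a median of 27.4 and a highest value of 39.7. The medians were higher after surgery, but libraries at 0 or near it occurred at each time. Its log2 fold change was 0.39 (standard error 0.65, adjusted p = 0.936 by edgeR) for T1 against T0, 0.69 (standard error 0.65, adjusted p = 0.916) at T2 relative to T0, and 0.30 (standard error 0.65, adjusted p = 0.991) for T2 against T1. The value for T1 against T0 was 0.10 without TMM, 0.18 without T1 replicate t50 and 0.63 without T0 replicate t46. For T2 against T1 it was 0.13 without T1 replicate t44 and 0.62 without T1 replicate t50. Counts were between 0 and 49 per library.

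cpi-mir-155a-3p was the one entry of the 6 tested that was past an unadjusted p of 0.05 and the fold change limit. It had 39.6 CPM in its lowest library, a median of 138 and 495 in its highest at T0, with 18.5, 93.1 and 554 CPM at T1 and 27.5, 56.2 and 202.6 CPM at T2. Only 1 of the 8 T2 libraries exceeded the T0 median and 2 fell short of the lowest T0 library, and the ranges overlapped. The log2 fold change was -1.27 (standard error 0.61, 95% confidence interval -2.52 to -0.01) for T2 against T0. Its adjusted p by edgeR was 0.577, so that it did not pass the limit, and the unadjusted value from the same edgeR model was 0.0478. At the unadjusted limit 2.9% of all entries tested were lower at T2. The entries tested include ami-mir-155-3p and aca-mir-155-3p, whose counts were identical to those of cpi-mir-155a-3p in 21 and 20 of 24 libraries. DESeq2 gave a log2 fold change of -1.12 and an unadjusted value of 0.0593. Over the alternatives the adjusted p lay between 0.342 and 1.

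The values of cpi-mir-155a-3p turned on single libraries. T0 replicate t37 had 495 CPM from 378 counts and T1 replicate t53 had 554 CPM from 522 counts, while the other libraries of these time points stayed at or below 210 and 158 CPM. Without T0 replicate t37 the T2 against T0 estimate was -0.67 on the log2 scale (adjusted p = 0.878 by edgeR). For T1 against T0 it was -0.17 (standard error 0.58, adjusted p = 0.959), with 0.33 without T0 replicate t37 and -1.01 without T1 replicate t53. For T2 against T1 it was -1.10 (standard error 0.61, adjusted p = 0.846), with -0.28 without T1 replicate t53. T2 replicate t39, with 202.6 CPM the highest at T2, had 6 counts, and without it the value of T2 against T0 was -1.50 (adjusted p = 0.718).

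Set against another member in the same library, cpi-mir-155a-3p was also lower at T2 on average, and the difference did not pass. The log2 ratio of its counts to those of cpi-mir-21-3p averaged -5.16 ± 1.08 (SD, n = 8) at T2 and -4.40 ± 1.003 at T0 (two-sided exact permutation test, p = 0.163, adjusted p = 0.901). Its ratio to cpi-mir-146c-3p averaged -4.23 ± 1.44 at T2 and -3.33 ± 1.08 at T0 (two-sided exact permutation test, p = 0.177, adjusted p = 0.901). The white cell list names miR-142, miR-223 and miR-150, of which miR-150 has no cpi entry. Since miR-155 and miR-146 are known from immune cells, the summed level of the cpi entries of miR-142 and miR-223 (6 entries, all with counts) is given beside cpi-mir-155a-3p. The lowest, median and highest library held 1465, 3754 and 5170 CPM of them at T0, 1805, 2269 and 6734 CPM at T1, as well as 1553, 4009 and 7322 CPM at T2. Taken entry by entry, the median log2 fold change of the 6 was -0.60 for T1 against T0, -0.78 at T2 relative to T0, and -0.02 for T2 against T1. By edgeR 0 of the 6 were called, where 0.58% of all entries were for T1 against T0 and 0% for T2 against T0 and T2 against T1. At the unadjusted limit 1 of the 6 was lower for T2 against T0, where 2.9% of all entries were. Spearman's rho of cpi-mir-155a-3p with the summed level was -0.39 over the 24 libraries, with 0.21 within T0, -0.55 within T1 and -0.24 within T2. For the other tested members the rho over the 24 libraries was 0.54 (cpi-mir-146c-3p), 0.44 (cpi-mir-146b-3p), 0.50 (cpi-mir-146c-5p), 0.50 (cpi-mir-21-5p) and -0.28 (cpi-mir-21-3p). Within T0, T1 and T2 that of cpi-mir-21-3p was 0.17, -0.71 and 0.26, and those of the others in this list were positive. The part of white cells in the values of these members was not tested.

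The low counts of the other 6 entries kept them out of the test. In a library, 3 counts corresponded to between 1.64 and 101 CPM with a median of 7.33, the floor below which an entry was not reliably seen. cpi-mir-155a-5p had 2 counts in all, both in T0 replicate t37, and 0 at T1 and at T2. A count of 0 over the 8 libraries allows up to 0.797 CPM at T1 and 0.601 CPM at T2 for this entry. These limits pool the libraries and cover counting error only. They do not bound miR-155-5p under another species prefix, since the alligator entry ami-mir-155-5p had 61 counts at T1 and 39 at T2. From 2 counts on cpi-mir-155a-5p no difference between time points was detectable. cpi-mir-155b-3p had 1 count each at T0 and T1 and 4 at T2, and cpi-mir-155b-5p had 4 counts at T0, 0 at T1 and 1 at T2, which is likewise too few. In a fit with no filter cpi-mir-155b-5p was past the unadjusted limit for T1 against T0 on these 0 and 4 counts, with an adjusted p of 0.423 by edgeR. cpi-mir-146a-5p had 55 counts at T0, with 27 at T1 and 17 at T2, and was at 0 in 2, 2 and 4 of the 8 libraries.

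cpi-mir-146a-3p had medians of 12.01 CPM at T0, 17.1 at T1 as well as 11.1 at T2, and its highest library was T1 replicate t53 with 60.5 CPM, the library that was also highest for cpi-mir-155a-3p. In a fit with no filter its log2 fold change was 0.06 (standard error 0.70, adjusted p = 1 by edgeR) for T1 against T0 and -0.69 (standard error 0.72, adjusted p = 0.788) for T2 against T0. cpi-mir-146a-5p had a median of 0.632 CPM at T2 and 7.27 at T0, with 7 of 8 libraries at T2 below the median of T0. Both medians lay below the median floor of 3 counts at their time point, 7.69 CPM at T2 and 8.12 at T0. Of its 17 counts at T2, 11 came from replicate t51. The T2 against T0 estimate of this entry was -1.66 on the log2 scale (standard error 0.94, adjusted p = 0.515 by edgeR, no filter). cpi-mir-146b-5p had medians of 10.7 CPM at T0, 22.02 at T1 as well as 21.4 at T2, with log2 fold changes of 0.60 (standard error 0.68, adjusted p = 0.861 by edgeR, no filter) for T1 against T0 and 0.68 (standard error 0.68, adjusted p = 0.774) for T2 against T0.

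The same families were also listed under the other 3 species, in 21 entries with the prefixes ami (Alligator mississippiensis), aca (Anolis carolinensis) and oha (Ophiophagus hannah). For miR-21 these entries repeated the cpi values. The ami, aca and oha entries of mir-21-3p had 35396, 35395 and 35396 counts against 35399 on the cpi entry, and differed from it by at most 3 counts in a library. ami-mir-21-5p and oha-mir-21-5p had the counts of cpi-mir-21-5p in all 24 libraries. The same held closely for mir-155a-3p, where ami-mir-155-3p and aca-mir-155-3p were identical to the cpi entry in 21 and 20 of 24 libraries. Entries with the same counts are not independent measurements.

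For miR-146 the names did not line up between species. aca-mir-146a-3p had 14795 counts and oha-mir-146b-3p had 14798, and both followed cpi-mir-146c-3p, the entry with another letter, at 0.717 times its 20626 counts (Spearman's rho of raw counts over the 24 libraries 0.99). A rho of raw counts also reflects depth, and for aca-mir-146a-3p it was 0.88 with cpi-mir-146b-3p and 0.70 with cpi-mir-146a-3p. The cpi entry with the same name as the aca entry, cpi-mir-146a-3p, had 267 counts. The ami entries of the 3p arm went with the cpi entries of the same letter, with 20849 counts on ami-mir-146c-3p, 2101 on ami-mir-146b-3p and 318 on ami-mir-146a-3p. The 5p arm of hairpin b did not, with 22 counts on ami-mir-146b-5p and 312 on cpi-mir-146b-5p (rho of raw counts 0.29). In miR-155, ami-mir-155-5p had 168 counts and was detected in 21 of 24 libraries, while cpi-mir-155a-5p and cpi-mir-155b-5p had 2 and 5 counts. ami-mir-155-5p had a median of 8.42 CPM at T0 (68 counts), 14.3 at T1 (61 counts) and 7.65 at T2 (39 counts), and did not pass the filter.

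**Figure D4:**
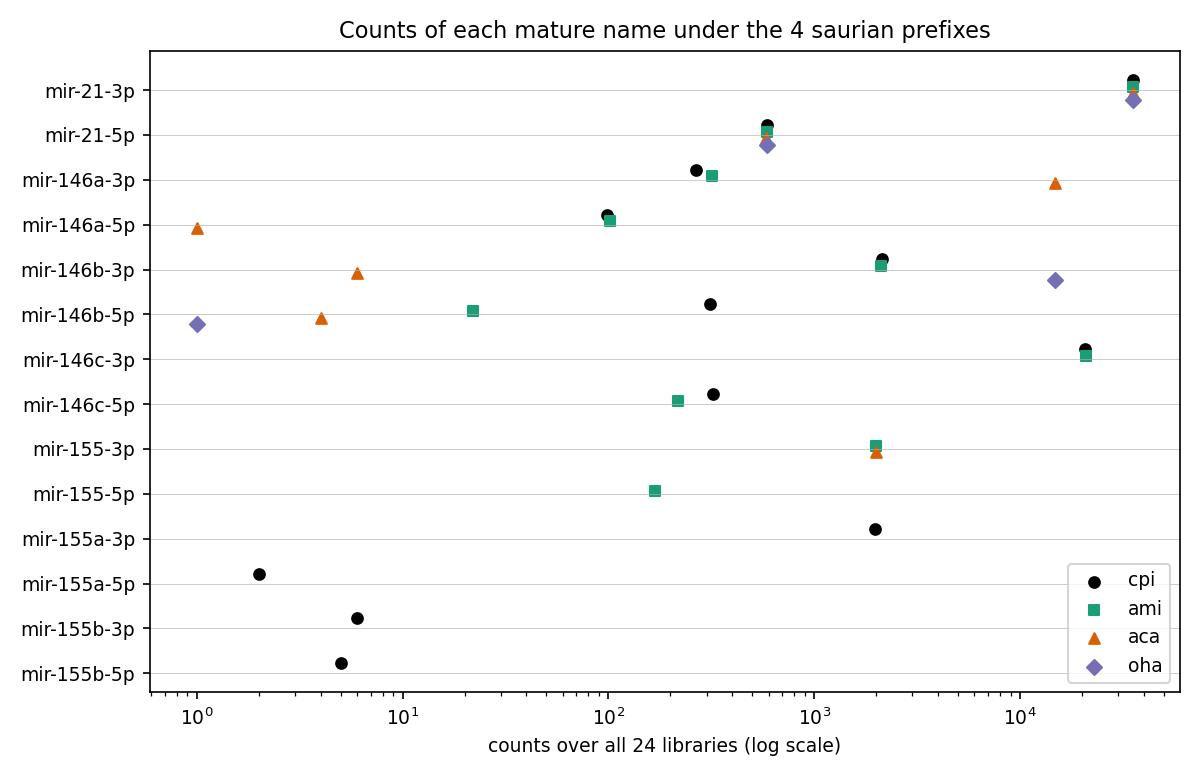
Counts over all 24 libraries (x axis, log scale) of each mature name of the 3 families (y axis), under the prefixes cpi, ami, aca and oha. The symbols of mir-21-3p and mir-21-5p nearly coincide, whereas those of mir-146a-3p and mir-146b-3p spread from 6 to 14798 counts, and mir-155-5p has 168 counts under ami. A prefix without a symbol has no entry of that name.

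A wider list of families tied in mammals to toll-like receptor and NF-kB signalling (miR-9, miR-125, miR-132, miR-147, miR-181, miR-187, miR-199, miR-212 and miR-223) held 42 cpi entries, of which 28 passed the filter. By edgeR, 0 of the 28 were called in each comparison. The study itself, by DESeq2, listed mir-125b-1-5p and mir-187-5p, whose families are on this list, as higher at T1 than at T0. Its RT-qPCR did not quantify mir-187-5p. At the unadjusted limit by edgeR, 1 of the 28 was higher and 0 lower for T1 against T0. Of all entries, 4.06% were higher and 0.145% lower. There was 1 higher and 0 lower for T2 against T0 (2.17% and 2.9% of all entries), and 1 higher and 1 lower for T2 against T1 (0.145% and 3.48%). These were cpi-mir-187-5p, with 1.35 for T1 against T0 and -1.61 for T2 against T1, and cpi-mir-9-4-3p, with 2.08 for T2 against T0 as well as 2.15 for T2 against T1. The adjusted p of these values by edgeR lay between 0.512 and 0.846. Both entries are named because the counts are small, after their values were seen. The median log2 fold change of the 28 entries was 0.10 for T1 against T0, 0.01 at T2 relative to T0, and -0.03 for T2 against T1, beside 0.08, -0.03 and -0.11 over all 690 entries.

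The cpi entries whose level followed that of a member most closely over the 24 libraries, by Spearman's rho on log2(CPM + 1) among 191 entries, are given as a description, since turtles repeat among the libraries. For cpi-mir-21-3p they were cpi-mir-460a-3p (rho 0.49), cpi-mir-24-1-5p (0.48) and cpi-mir-23a-3p (0.46). Within T0 alone the rho of these with cpi-mir-21-3p was 0.10, 0.24 and 0.10, within T1 0.55, 0.79 and 0.71, and within T2 0.52, 0.60 and 0.50. For cpi-mir-146c-3p they were cpi-mir-451-3p (0.67), cpi-mir-363-5p (0.63) and cpi-mir-365-1-5p (0.61), and the first of these, a miRNA of red cells, had a rho of 0.69, 0.88 and 0.69 with it within T0, T1 and T2. The 4 cpi entries of the red cell families miR-144 and miR-451, all with counts, summed to 1828, 6315 and 13800 CPM in the lowest, median and highest library of T0, to 1234, 5556 and 26672 CPM in those of T1, and to 2378, 5279 and 16010 CPM in those of T2. The rho of cpi-mir-146c-3p with the total count of the library was 0.75, above the 0.67 with cpi-mir-451-3p. The part of red cells or of depth in its level was not tested. For cpi-mir-155a-3p they were cpi-mir-194-2-3p (0.69), cpi-mir-215-3p (0.61) and cpi-mir-194-1-3p (0.55). Within T0 the rho of these with cpi-mir-155a-3p was 0.62, 0.55 and 0.40, within T1 0.93, 0.43 and 0.45, and within T2 0.52, -0.05 and 0.31. miR-194 belongs to the liver list (miR-122, miR-192 and miR-194, 8 cpi entries, all with counts), whose lowest, median and highest sums were 6182, 10315 and 60094 CPM at T0, 4824, 17384 and 111512 CPM at T1, as well as 4361, 9130 and 33350 CPM at T2. Of its 5 tested entries, 0 were past the unadjusted limit for T2 against T0 (5.07% of all entries), with a median log2 fold change of -0.31. The skeletal muscle list (miR-1, miR-133 and miR-206, 16 cpi entries, all with counts) summed to 123, 1365 and 25541 CPM at T0, 673, 1014 and 25721 CPM at T1, as well as 520.5, 1453 and 2545 CPM at T2. Of its 5 tested entries, 2 were lower at that limit for T2 against T0, where 2.9% of all entries were lower. The median log2 fold change of the 5 was -1.63. At T0 the highest muscle sums were those of replicate t49, with 25541 CPM, and of replicate t46, with 7165 CPM. Over the 24 libraries rho of cpi-mir-155a-3p was -0.20 with the liver sum and -0.26 with the muscle sum, and the part of either tissue in its values was not tested. Among the members themselves, rho was 0.31 between cpi-mir-155a-3p and cpi-mir-21-3p, with 0.48, 0.36 and 0.17 within T0, T1 and T2. Between cpi-mir-155a-3p and cpi-mir-146c-3p it was 0.08, with 0.62, 0.05 and -0.50 within them. Between cpi-mir-146c-3p and cpi-mir-21-3p it was 0.05, with 0.14, -0.14 and 0.05 within them.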

How the data were processed

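Small RNA of 24 plasma libraries was sequenced after preparation with a NEBNext small RNA kit. The labels and the paper name different extraction kits, and it is unknown which one yielded these libraries. Adapters were removed by the authors (Cutadapt), short reads were dropped, and the remainder was mapped with BWA against saurian miRNA precursors from miRBase. The table deposited by the authors holds raw counts per mature entry, with every entry listed in 2 identical rows. One row per entry was used here. TMM normalization, the filterByExpr filter (690 of 1994 entries) and the quasi-likelihood test of edgeR (version 4.0.16 in R 4.3.3) were applied to all libraries in one model, with Benjamini-Hochberg adjustment over the 690 entries. The common dispersion was 0.453. Standard errors are the log2 fold change divided by the square root of F. DESeq2 (version 1.42.0) was an alternative, as were other scalings, filters, sets of entries and libraries left out. Permutation tests used scipy 1.17.1. Libraries of one time point come from separate turtles by the design, and p-values take no account of turtles repeating over time. Mature sequences and genome coordinates are not given, since none were used here. Members and lists were chosen with earlier results of these data known, and the within-library measures after the values were seen. All members were named. Other entries were named if past the unadjusted limit in the wider list, or as the 3 closest in Spearman's rho to the most abundant entry of each family.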

Additional observations from a re-analysis of the deposited data

Results flagged for a closer look

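Dixon's ratio, the distance of an extreme library from the next one as a share of the whole range, was computed for 18 groups (6 entries at 3 time points). It was above its 95% critical value of 0.526 in 5 of them. By chance about 1 in 20 would be, if the values were normally distributed. The ratio was taken on CPM and not on a log scale. The mean CPM of cpi-mir-155a-3p lay above its median at each time point, so its values were skewed. The 5 groups can thus not be set against that rate, and a log scale was not tested. cpi-mir-155a-3p had a library past the critical value at each time point. T1 replicate t53 stood out at the top with 554 CPM (ratio 0.739, the others between 18.5 and 158 CPM), T0 replicate t37 with 495 CPM (ratio 0.625, the others between 39.6 and 210 CPM), and T2 replicate t39 with 202.6 CPM (ratio 0.552, the others between 27.5 and 106 CPM). The value of T2 replicate t39 comes from 6 counts in the smallest library. For cpi-mir-146b-3p, T0 replicate t46 stood out at the bottom with 39.03 CPM (ratio 0.613, the others between 111 and 156 CPM). For cpi-mir-21-5p, T2 replicate t33 stood out at the top with 104 CPM (ratio 0.579, the others between 0 and 43.6 CPM). No label sets these libraries apart from the others of their time point.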

How the results depend on the processing

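At the adjusted limits, 0 members were called in any of the 3 comparisons under each alternative run. These were cpi entries alone, sums over species or over both arms, both deposited rows, DESeq2 and its scaling, unscaled totals, every entry unfiltered or only those with 10 counts in 8 libraries, a fit of only 2 time points, removal of the smallest library per time point, and removal of each of the 24 libraries. The smallest adjusted p of a tested member over these was 0.342. At the unadjusted limit of 0.05, 1 of the 6 tested members passed for T2 against T0 by edgeR, cpi-mir-155a-3p. Of 610 alternative values of the 18 log2 fold changes, 593 kept their direction and 17 had the opposite one, 15 of them with a library left out. The value of cpi-mir-146c-3p was -0.0121 for T2 against T0 without TMM, and 0.0156 for T2 against T1 without the smallest libraries. With one library left out, the values ran from -0.0485 to 0.25 for cpi-mir-146c-3p (T2 against T0), from -0.17 to 0.0847 for the same entry (T2 against T1), from -0.36 to 0.10 for cpi-mir-21-3p (T2 against T0), from -0.59 to 0.0680 for cpi-mir-21-5p (T2 against T1), and from -1.01 to 0.33 for cpi-mir-155a-3p (T1 against T0). No paired analysis was possible because the labels do not name the turtle. Counts were fewest for cpi-mir-155a-5p and both entries of miR-155b, with 2, 6 and 5 over all libraries, too few to compare time points. In the same libraries ami-mir-155-5p had 168 counts, so these low counts hold for the cpi entries only.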
